A study of Mus musculus with 6 samples.

Results

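The 32 genes described here belong to the interferon response and to antigen presentation, and were read in an RNA-seq comparison of pancreatic islets from db/db and db/m mice. They were chosen by name from 44713 genes of the deposited table and were grouped by role. Transcription and feedback factors comprised 6 genes (Irf1, Irf7, Irf9, Stat2, Nlrc5 and Usp18). RNA sensors comprised 3 (Ifih1, Ddx58 and Dhx58). Antiviral effectors comprised 12 (Ifit1, Ifit2, Ifit3, Isg15, Oas1a, Oas1g, Oasl2, Rsad2, Bst2, Ifitm3, Ifi35 and Gbp3). The antigen presentation arm held the immunoproteasome subunits Psmb8, Psmb9 and Psmb10, the peptide loading genes Tap1, Tap2 and Tapbp, the class I genes B2m, H2-K1, H2-D1 and H2-T23, and Cd74, the class II invariant chain. All 32 had a row in the table, and 22 passed the filter on low counts and were tested.

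Both groups were male mice on a normal diet, studied at 10 weeks of age, with 3 mice per group and 1 library per mouse. The db/db mice carried the Leprdb mutation in both copies (genotype Lepr-/- in the labels), which impairs leptin receptor signalling and makes them obese and diabetic. The db/m mice were their littermates and served as healthy controls. Their labelled genotype was wild type, although the name db/m stands for a carrier of a single mutant copy. The methods give the BKS strain, with the Dock7m marker allele, and the labels give C57BL/6. The islets were freed with collagenase and separated on a density gradient, so other pancreatic cells and blood cells could be carried along, and total RNA was sequenced after removal of rRNA.

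Type I interferons bind a receptor on the cell surface whose kinases activate a complex that contains STAT2 and IRF9, and this complex binds the interferon-stimulated response element (ISRE) in front of its target genes. Interferon gamma acts through the gamma-activated site (GAS), and induces IRF1, the immunoproteasome and the class I and class II presentation genes. In islets, high class I levels on β cells are best known from autoimmune diabetes, in which T cells recognise β cells, whereas db/db mice are a model of type 2 diabetes.

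The libraries held between 15641797 and 20614531 counts, and the members together took 1740, 2951 and 3322 of these in db/db replicates 1, 2 and 3 and 8300, 2649 and 2963 in db/m replicates 1, 2 and 3, at most 0.0531% of a library. Levels are given as CPM, the counts scaled to library totals that were corrected by the TMM method. The 13 acinar markers, which are genes of the exocrine pancreas such as the digestive enzymes, took 46.5% to 49.5% of the counts in db/db libraries and 35.9% to 46.9% in db/m libraries. The 10 β-cell markers, among them both insulin genes, took only 0.1502% to 0.641% and 0.772% to 4.39%, so exocrine transcripts outweighed those of the labelled islet cells in each library. The paper describes insulin staining, mostly positive, as its check that the sequenced islets held no acinar cells. How that staining relates to the acinar counts was not tested. Lepr had 4, 10 and 68 counts in db/db mice and 37, 25 and 8 in db/m mice. The db allele alters the splicing of Lepr, and a count over the whole gene does not check it. The TMM factors of db/db replicate 1 (0.605) and db/m replicate 1 (1.75) lay furthest from 1, against 0.919 to 1.06 in the other libraries.

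The ISRE core was looked for on both strands, as TTTCNNTTTC or GAAANNGAAA, in the 250 bases before the transcription start of each gene in the RefSeq promoter table of GRCm38.p6. Of the 27 members with an entry (all but Nlrc5, Usp18, Dhx58, Tap2 and Cd74), 11 held it, which is 40.7%, against 3.46% of all 27025 genes in that table. They were B2m, Gbp3, Isg15, Oas1g, Oas1a, Bst2, Stat2, Rsad2, H2-T23, Ifit3 and Ifit1, so 8 of 12 antiviral effectors held the core and 2 of 4 class I genes. The GAS core TTCNNNGAA stood in 5 of the 27 members (18.5%) and in 8.13% of all genes. The following stretches outside any annotated exon are shown because they carry the element that names these genes, among them the promoter of B2m, the member with the smallest p-value. Each reads 5′ to 3′ on the strand of its gene with the ISRE cores in capitals, except Irf1, where the capitals mark the GAS core.
B2m, chr2:122147538-122147567, forward strand: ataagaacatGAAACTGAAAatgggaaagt
H2-T23, chr17:36032806-36032835, reverse strand: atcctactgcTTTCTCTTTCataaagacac
Isg15, chr4:156200871-156200900, reverse strand: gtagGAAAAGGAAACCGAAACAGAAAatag
Oas1g, chr5:120887614-120887638, reverse strand: ttctcggGAAATGGAAACTGAAAat
Bst2, chr8:71537580-71537609, reverse strand: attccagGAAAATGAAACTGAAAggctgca
Rsad2, chr12:26456553-26456582, reverse strand: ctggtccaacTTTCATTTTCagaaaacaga
Irf1, chr11:53769914-53769942, forward strand: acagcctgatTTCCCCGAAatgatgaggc
The element lay 139 to 130 bases before the start in B2m and 18 to 3 bases before it in Oas1g. Isg15 held 3 overlapping copies, Bst2 and Oas1g held 2 each, and in Bst2 the element overlapped a match to the GAS core. A match of letters is a description and does not show that a factor was bound. Of the 11 members with the ISRE core, 6 were below the filter on low counts and were not tested. Of the 5 tested members with the ISRE core, 4 were lower and 1 was higher in db/db islets, and of the 13 tested members with a promoter entry and without it, 9 were lower and 4 higher.

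The question put to the counts was whether the islets of diabetic mice differed from those of healthy mice in these genes. None of the 22 tested members passed an adjusted p of 0.05 in edgeR's quasi-likelihood test, in which 0.619% of all 12760 tested genes did (79 genes). None of the 21 with a value did in DESeq2. That program had 1 member higher and 1 lower at an unadjusted p under 0.05, which is 9.52% of the 21 against 16.3% of all genes. At an unadjusted p under 0.05 in edgeR's test there were 3 members, 13.6% of those tested, against 14.9% of all genes. B2m was the single one that was higher in db/db mice (background 5.04%), and Stat2 and Usp18 were lower (background 9.89%). These shares lay near those of all genes. In sign, 16 members were lower and 6 higher in db/db islets, with a median log2 fold change of -0.43, while the median of all tested genes was -9e-04. The 3 mice of each group did not overlap for 3 tested members, all lower in db/db (Irf9, Stat2 and Rsad2, 13.6% of those tested), where 12.6% of all tested genes did the same. Below the filter, Dhx58, Oas1g and Oasl2 were also lower without overlap, on few counts. A share over all genes below the filter was not computed. No tested member was higher without overlap, against 8.53% of all genes. As the RNA came from whole islet preparations, fewer cells of a type and less RNA per cell cannot be told apart in any of these values.

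**Figure D1:**
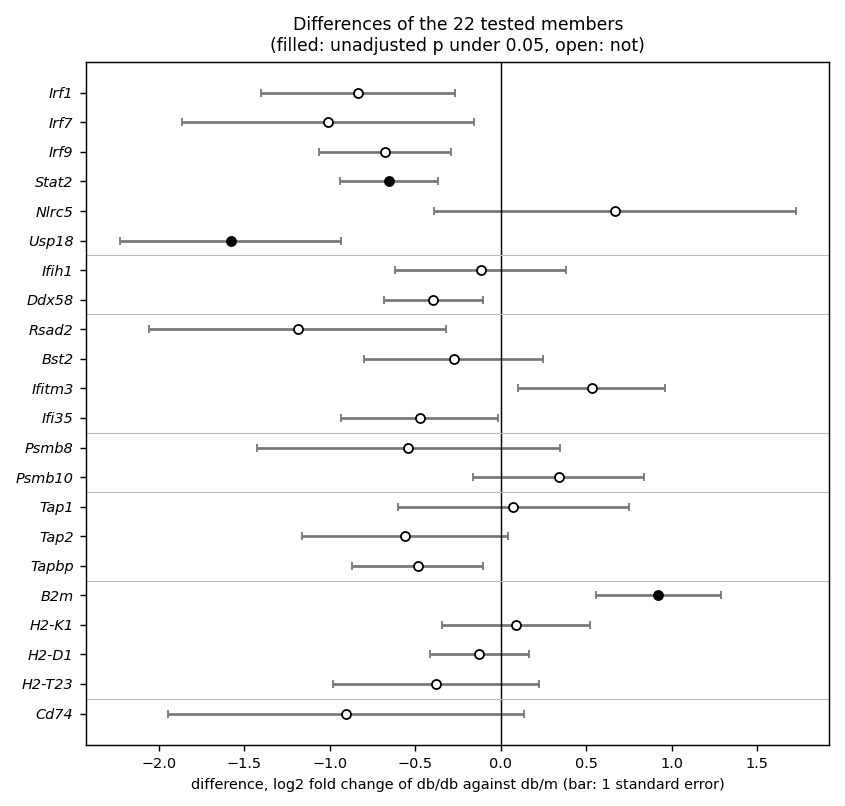
Log2 fold change of db/db against db/m islets (x axis, negative values are lower in db/db) for each of the 22 tested members, ordered by role and separated by grey lines, with bars of 1 standard error. Filled points are Stat2, Usp18 and B2m, the 3 members with an unadjusted p under 0.05. None of the 22 had an adjusted p under 0.05.

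Of the 6 transcription and feedback genes, 5 had a negative log2 fold change, and none passed the adjusted test. Stat2, the STAT that is particular to the type I and type III interferon complex, was at 3.77, 6.88 and 6.25 CPM in the db/db mice and at 9.36, 8.27 and 9.04 CPM in the db/m mice. All db/db mice lay below all db/m mice, with means of 5.63 ± 1.64 (SD, n = 3) and 8.89 ± 0.560 (SD, n = 3). Its log2 fold change was -0.65 (SE 0.29), with an unadjusted p of 0.0477 and an adjusted p of 0.328 in edgeR's quasi-likelihood test with Benjamini-Hochberg adjustment. Irf9, which binds DNA in the same complex, showed the same order, with 2.97, 1.38 and 2.69 CPM in db/db and 3.19, 4.08 and 3.95 CPM in db/m mice. For Irf9 the log2 fold change was -0.68 (SE 0.39, adjusted p = 0.454 in edgeR's quasi-likelihood test).

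Usp18, a protease that removes ISG15 from proteins and blocks the type I interferon receptor, had 0.401, 1.26 and 0.807 CPM in db/db mice. In db/m mice it had 4.44, 1.92 and 1.08 CPM. The groups overlapped at 1 pair of mice, since db/db replicate 2 exceeded db/m replicate 3. The log2 fold change was -1.58 (SE 0.65), with an unadjusted p of 0.0367 and an adjusted p of 0.295 in edgeR's quasi-likelihood test. Without db/m replicate 1 its difference was -0.83 and the unadjusted p 0.240, and without db/db replicate 1 the unadjusted p was 0.103. It was also above 0.05 without db/db replicate 3 (0.0838) and without db/m replicate 2 (0.0507). For Stat2 the unadjusted p was 0.137 without db/db replicate 1 and 0.104 without db/m replicate 1, and it was under 0.05 in 1 of the 6 fits with a mouse left out, that without db/db replicate 2. Reads of Usp18 and of a gene on the other strand, Gm44148, could not be told apart over 7.0% of its exon bases, since a strand setting is not given.

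Irf1, an early interferon gamma target that activates class I genes, had 1.52, 2.81 and 5.31 CPM in db/db mice and 10.4, 3.67 and 3.09 CPM in db/m mice. A single high library, db/m replicate 1, separated the means of 3.22 ± 1.93 (SD, n = 3) and 5.73 ± 4.08 (SD, n = 3). The log2 fold change of -0.84 (SE 0.57, adjusted p = 0.523 in edgeR's quasi-likelihood test) was -0.043 without that library. Irf7, which amplifies the type I response, was scarce, with 0, 8 and 11 counts in db/db mice and 29, 12 and 14 in db/m mice. This gave a log2 fold change of -1.01 (SE 0.85, adjusted p = 0.609 in edgeR's quasi-likelihood test), which was -0.46 without db/db replicate 1 and -1.70 without db/db replicate 3. Nlrc5, the activator of class I transcription, ran from 0 to 3.36 CPM in db/db mice and from 0.379 to 2.13 CPM in db/m mice, so the db/db mice enclosed the db/m mice.

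The RNA sensors Ddx58 (RIG-I) and Ifih1 (MDA5), which detect viral RNA in the cytoplasm, overlapped between the groups. Ddx58 had 3.45, 4.96 and 4.37 CPM in db/db mice and 5.51, 6.58 and 4.77 CPM in the controls. The log2 fold change of Ddx58 was -0.39 (SE 0.29, adjusted p = 0.552 in edgeR's quasi-likelihood test), and db/db replicate 2 alone reached the range of the controls. Ifih1 was highest in db/db replicate 2, at 5.38 CPM, and the other db/db mice, at 1.77 and 1.61 CPM, lay below the db/m range of 2.44 to 3.63 CPM. Dhx58 (LGP2), a helicase that tunes both, was below the filter, with 5, 6 and 4 counts in db/db mice and 22, 11 and 11 in db/m mice. Its 3 db/db mice lay below its 3 db/m mice, at 0.269 to 0.401 against 0.596 to 0.808 CPM, on few counts.

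Of the antiviral effectors, 4 of 12 were abundant enough to be tested. Ifitm3, which blocks the entry of viruses in endosomes, was the most abundant, at 9.39, 6.82 and 6.05 CPM in db/db mice and 5.87, 2.10 and 7.36 CPM in db/m mice. It was the one tested effector with a higher mean in db/db mice, with a log2 fold change of 0.53 (SE 0.43, adjusted p = 0.594 in edgeR's quasi-likelihood test), and the groups overlapped. Without db/m replicate 2 its difference was 0.20, and without db/m replicate 3 it was 0.89. Normalized by library size alone it was -0.13, a setting in which the median of all genes was -0.59.

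Rsad2 (viperin), an enzyme that makes a chain-terminating nucleotide, had 0, 16 and 14 counts in db/db mice. In db/m mice it had 59, 20 and 20 counts. All db/db mice lay below all db/m mice, but by little in 4 of the 6, which ran from 0.942 to 1.17 CPM, and the log2 fold change of -1.19 had an SE of 0.87 and an adjusted p of 0.551 in edgeR's quasi-likelihood test. It was -0.63 without db/db replicate 1 and -0.77 without db/m replicate 1. Ifi35, a binding partner of other interferon-induced proteins, had 1.61, 3.23 and 3.36 CPM in db/db and 4.92, 4.60 and 1.90 CPM in db/m mice, with a log2 fold change of -0.47 (SE 0.46, adjusted p = 0.659 in edgeR's quasi-likelihood test). This difference ran from -0.78 without db/m replicate 3 to -0.20 without db/db replicate 1. Bst2 (tetherin), which holds budding viruses at the membrane, ran from 0.777 to 1.28 CPM in db/db and from 0.771 to 1.62 CPM in db/m mice.

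**Figure D2:**
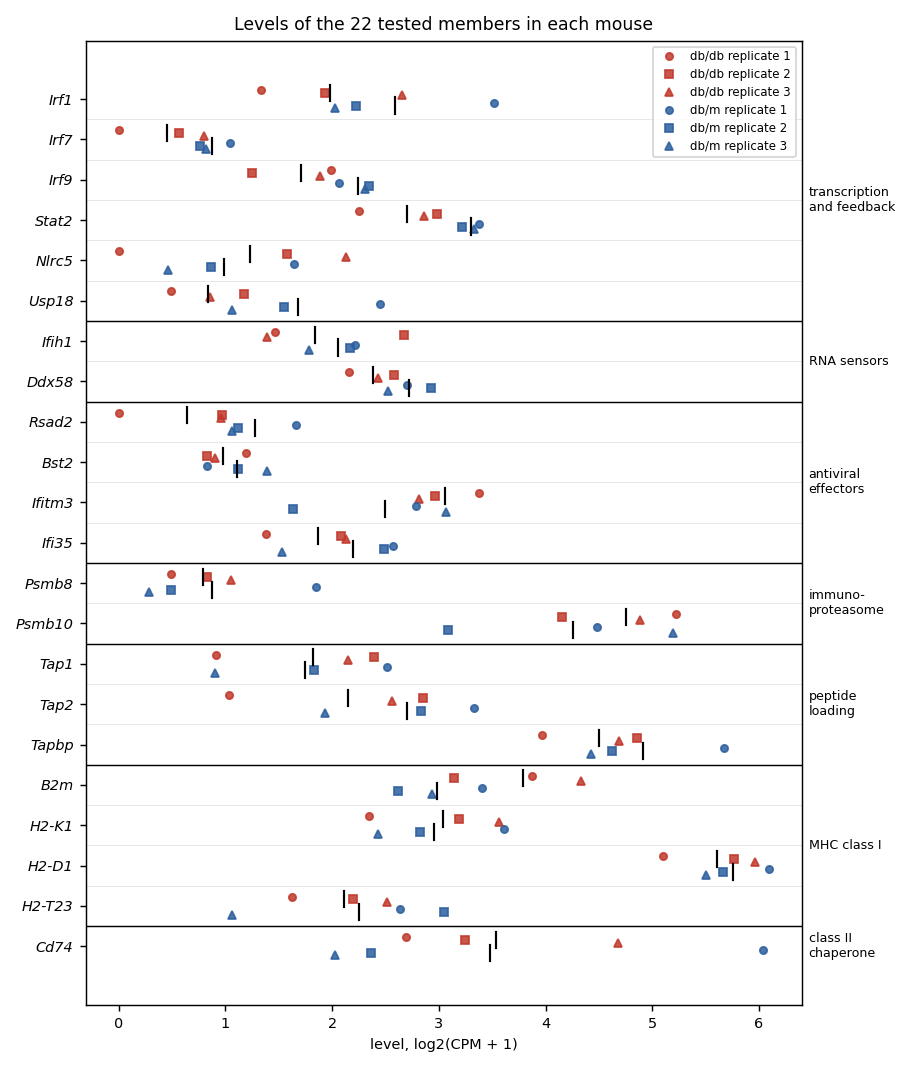
Level of each of the 22 tested members as log2(CPM + 1) (x axis) in each mouse, with db/db mice in red above, db/m mice in blue below, and circles, squares and triangles for replicates 1, 2 and 3. Black ticks are group means of these log values. Db/m replicate 1 is the highest library in 13 of the 22 genes and db/db replicate 1 the lowest in 12.

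The best known interferon markers were almost without reads in both groups. Isg15, a small protein that is linked to other proteins, had 2, 1 and 3 counts in db/db mice and 4, 0 and 3 in db/m mice. Ifit3 had 2, 0 and 1 counts against 1, 1 and 3, and Ifit2 had 2, 3 and 13 against 1, 11 and 8; the IFIT proteins bind foreign RNA. A limit of 3 counts corresponded to 0.110 to 0.241 CPM in single libraries, so differences in Isg15 and Ifit3 were not detectable at this depth.

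Other effectors had their reads mainly in the db/m libraries. Ifit1 had 1, 1 and 3 counts in db/db mice and 23, 8 and 1 in db/m mice. Oasl2, of the family of oligoadenylate synthetases that activate an antiviral RNase, had 3, 4 and 0 counts against 31, 6 and 18, and its groups did not overlap. Oas1g had 0 counts in every db/db mouse and 10, 2 and 2 in the db/m mice. Of its 14 control counts, 10 came from db/m replicate 1.

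Oas1a had 0, 2 and 0 counts in db/db mice against 13, 0 and 4 in db/m mice. Oas1a and Oas1g are near copies, with 57.6% and 45.7% of their stretches of 50 bases also found in another gene, so the split of reads between them is uncertain. For Ifit3 the shared part was 51.2%, mostly with Ifit3b. Gbp3, of the GTPase family that attacks the vacuoles of intracellular parasites, had 6, 7 and 22 counts in db/db mice and 27, 5 and 10 in db/m mice.

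**Figure D3:**
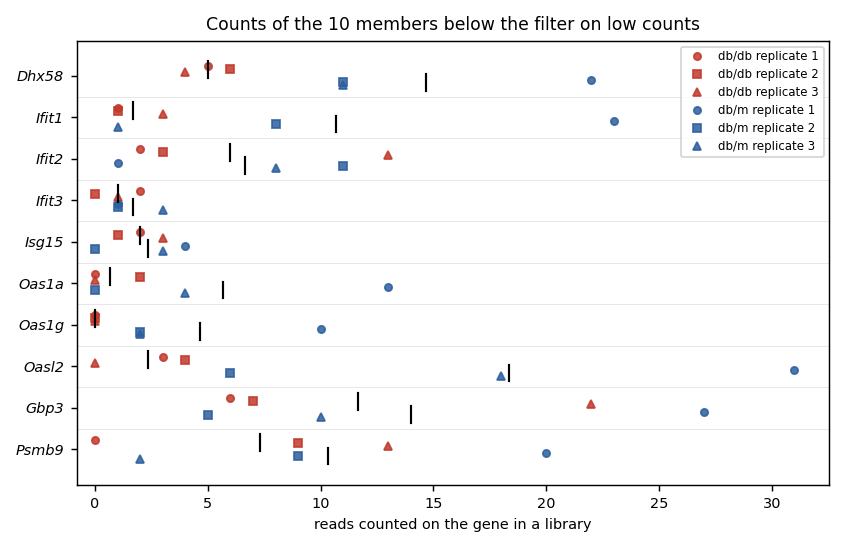
Reads counted in each library (x axis, raw counts, not scaled for library size) for the 10 members below the filter on low counts, with symbols as labelled and black ticks for group means. No library reaches more than 31 counts, and the db/db counts of Oas1g are all 0.

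The immunoproteasome subunits replace 3 subunits of the constitutive proteasome and change which peptides are cut. Psmb10, the most abundant of them, had 36.3, 16.8 and 28.5 CPM in db/db mice and 21.3, 7.51 and 35.6 CPM in db/m mice. The range of the controls reached beyond that of the db/db mice at its lower end and nearly to its top, and the log2 fold change was 0.34 (SE 0.50, adjusted p = 0.787 in edgeR's quasi-likelihood test). Psmb8 was at 0.401, 0.777 and 1.08 CPM in db/db mice and at 2.61, 0.408 and 0.217 CPM in db/m mice. It was highest in db/m replicate 1, and of the other controls db/m replicate 2 was level with the lowest db/db mouse and db/m replicate 3 was below it. Psmb9, below the filter, had 0, 9 and 13 counts against 20, 9 and 2.

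Per kilobase of exon, the mean level over the 6 mice was 19.2 CPM per kb for Psmb10, while Psmb8 was at 0.747 and Psmb9 at 0.434 CPM per kb. Their constitutive counterparts Psmb7, Psmb5 and Psmb6 were at 13.8, 12.9 and 18.4 CPM per kb. So Psmb10 stood at the level of the constitutive subunits, and Psmb8 and Psmb9 well under theirs. All 3 constitutive subunits were slightly higher in db/db mice, with log2 fold changes of 0.23 to 0.39 and no p under 0.05.

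The peptide loading genes shared a pattern across mice. Tapbp (tapasin), which holds class I molecules at the peptide transporter, had 14.6, 28.0 and 24.8 CPM in db/db mice and 50.1, 23.7 and 20.5 CPM in db/m mice. Only db/m replicate 1 was above the db/db range, and the log2 fold change of -0.48 (SE 0.38, adjusted p = 0.585 in edgeR's quasi-likelihood test) was 0.047 without it. Tap2, a subunit of the transporter that carries peptides into the endoplasmic reticulum, had 1.04, 6.22 and 4.91 CPM in db/db and 9.07, 6.12 and 2.82 CPM in db/m mice, with a log2 fold change of -0.56 (SE 0.60, adjusted p = 0.698 in edgeR's quasi-likelihood test). It was -0.10 without db/db replicate 1 and -0.11 without db/m replicate 1. Tap1, the other subunit, ran from 0.883 to 4.25 CPM in db/db and from 0.866 to 4.70 CPM in db/m mice. For Tapbp, 14.4% of the exon bases overlapped Gm19412 on the other strand.

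B2m, the invariant light chain without which class I molecules do not reach the cell surface, was the one member with a higher value in db/db mice at an unadjusted p under 0.05. It had 13.6, 7.83 and 19.2 CPM in db/db mice and 9.58, 5.13 and 6.66 CPM in db/m mice. The means were 13.6 ± 5.67 (SD, n = 3) and 7.12 ± 2.26 (SD, n = 3), and the lowest db/db mouse lay below the highest db/m mouse. The log2 fold change was 0.92 (SE 0.37), a 1.89-fold difference, with an unadjusted p of 0.0329 and an adjusted p of 0.284 in edgeR's quasi-likelihood test. The unadjusted p ran from 0.00695 without db/db replicate 2 to 0.161 without db/db replicate 3, with log2 fold changes of 0.59 to 1.22. It was also above 0.05 without db/db replicate 1 (0.0590), without db/m replicate 2 (0.0978) and without db/m replicate 3 (0.075). Normalized by library size alone, the difference was 0.23, a setting in which the median of all genes was -0.59.

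The class I heavy chains overlapped widely between the groups. H2-D1, the most abundant member in both groups, had 33.3, 53.5 and 61.1 CPM in db/db mice and 67.3, 49.7 and 44.3 CPM in db/m mice. Its means of 49.3 ± 14.4 (SD, n = 3) and 53.8 ± 11.99 (SD, n = 3) differed by less than the spread within either group, with a log2 fold change of -0.13 (SE 0.29, adjusted p = 0.868 in edgeR's quasi-likelihood test). H2-K1, the second classical heavy chain, ran from 4.09 to 10.8 CPM in db/db and from 4.39 to 11.2 CPM in db/m mice. H2-T23 (Qa-1), which presents leader peptides to natural killer cell receptors, ran from 2.09 to 4.71 and from 1.08 to 7.28 CPM. Of their stretches of 50 bases, 12.8% (H2-D1), 9.63% (H2-K1) and 13.6% (H2-T23) also occurred in other genes, most often of the same family. Class I heavy chains also vary between mouse strains, and the effect of the strain on their counts was not tested.

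Cd74, the chaperone of class II molecules and a marker of antigen-presenting cells, varied most of the tested members between mice of the same group. It had 68, 142 and 365 counts in db/db mice and 1760, 71 and 57 counts in db/m mice, which is 5.46, 8.49 and 24.5 CPM against 64.6, 4.13 and 3.09 CPM. All db/db mice lay above 2 controls and below the third. With all mice the log2 fold change was -0.91 (SE 1.04, adjusted p = 0.716 in edgeR's quasi-likelihood test). Without db/m replicate 1 it turned to 1.85 (SE 0.60), with an unadjusted p of 0.0132 and an adjusted p of 0.295 in edgeR's quasi-likelihood test, and over the 14 alternatives with a value the adjusted p ran from 0.0972 to 0.935.

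Several class II genes were highest in the same libraries as Cd74. Their activator Ciita had 0.401, 0.658 and 4.37 CPM in db/db mice and 8.30, 0.175 and 0.0541 CPM in db/m mice, and the class II chains H2-Aa, H2-Ab1 and H2-Eb1 were likewise highest in db/m replicate 1 and second in db/db replicate 3. H2-DMb2 was highest in db/db replicate 3, and H2-DMa and H2-DMb1, which had few counts, were second in db/db replicate 2. The summed level of the 11 class II genes listed was 5.54, 9.45 and 38.7 CPM in db/db mice and 59.8, 2.85 and 2.44 CPM in db/m mice. The leukocyte marker Ptprc (CD45) had 2.17, 3.89 and 19.6 CPM against 13.8, 1.40 and 0.921 CPM. Other leukocyte markers had another order, with Lyz2 highest in db/db replicate 1 (49.5 CPM), as was Tyrobp (1.85 CPM), and Cd79a highest in db/m replicate 2 (5.13 CPM). These genes outside the 32 were chosen after their values were seen.

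The 18 leukocyte markers summed to 60.9, 21.3 and 86.7 CPM in db/db mice and to 61.7, 14.9 and 5.47 CPM in db/m mice. Of the 11 that were tested, 7 were higher and 4 lower in db/db mice, with Lyz2 higher and Cd79a lower at an unadjusted p under 0.05. Without db/m replicate 1, the fit in which Cd74 was higher in db/db mice, 11 of the 13 leukocyte markers tested were also higher. Of these, 9 had an unadjusted p under 0.05, and Cd79a was lower at that threshold. Cd3g and Cd8a, among the 9, were not tested with all mice, and they and Cd3e had 0 counts in db/m replicates 2 and 3. The library left out was the highest control for each of the 13 but Cd3g and Cd79a. Leaving it out thus favoured higher values in db/db mice, so these numbers cannot show that the markers rose with Cd74. In the same fit the 5 tested class II genes were higher, with log2 fold changes of 2.26 to 7.24 and an unadjusted p under 0.05 each. Of all genes, 10.8% had such a p there. The value of 7.24 was that of H2-DMb2, which had 0 counts in db/m replicates 2 and 3, so its size was not measured. H2-Aa, H2-Ab1, H2-Eb1 and Ciita were highest in the library left out, so their direction here was largely set by leaving it out. Cd3g and Nkg7 had 0 counts in each db/m library and in db/db replicate 1. Of the 18, 5, 0 and 0 were at 0 in db/db replicates 1, 2 and 3, and 2, 4 and 8 in db/m replicates 1, 2 and 3. The part of leukocytes in the levels of Cd74 and of the other members was not tested.

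**Figure D4:**
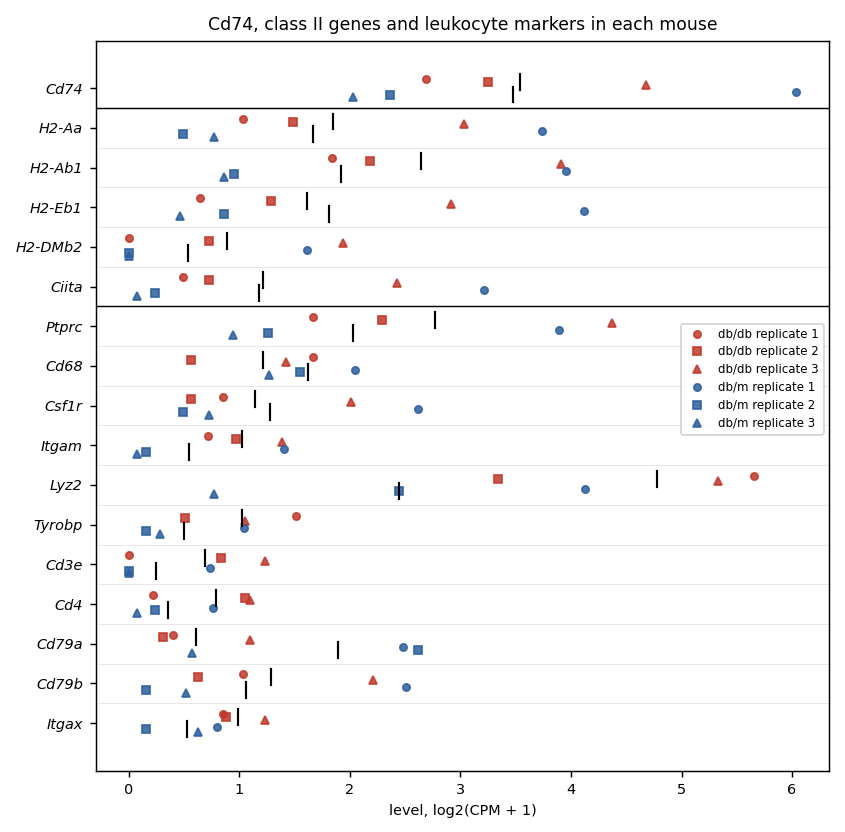
Level as log2(CPM + 1) (x axis) of Cd74, of the 5 tested class II genes and of the 11 tested leukocyte markers, separated by black lines, in each mouse, with black ticks for group means. In Cd74, H2-Aa, H2-Ab1, H2-Eb1 and Ciita, db/m replicate 1 and then db/db replicate 3 have the highest levels.

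Across the members the spread between mice of a group was wide. The median SD within groups on the scale of log2(CPM + 1) was 0.56 for the 22 tested members and 0.33 for all tested genes. The difference between the groups was smaller than the gene's own SD within groups in 15 of the 22 members (68.2%), and in 53.7% of all genes. Db/m replicate 1 was the highest library in 13 members (59.1%) and in 26.1% of all genes, and db/db replicate 1 was the lowest in 12 members (54.5%) and in 27.5% of all genes.

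These 2 libraries also stood apart in their cell markers. Db/db replicate 1 had the smallest β-cell share (0.1502%, with the next at 0.486% in db/db replicate 3). Its acinar share was the largest (49.5%), but close to that of db/db replicate 2 (48.7%). Db/m replicate 1 had the smallest acinar share (35.9%) and the largest β-cell share (4.39%). Left out of the fit together, a choice made after seeing the data, 8 of 23 tested members were lower in db/db, the median log2 fold change was 0.29, and 4 members were higher at an unadjusted p under 0.05 (B2m, H2-K1, Nlrc5 and Cd74), with none lower, which is 17.4% of the tested members against 12% of all genes in that fit. With db/m replicate 1 alone left out, 12 of 23 were lower and the median was -0.043.

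The signs of single members were read against these settings. Over the 15 alternatives, 6 members were lower in db/db islets in all of them in which they had a value (Irf7, Irf9, Stat2, Usp18, Ddx58 and Rsad2) and B2m was higher. Their sizes did not hold, since the smallest log2 fold changes were -0.22 for Irf7, -0.40 for Irf9, -0.36 for Stat2, -0.14 for Usp18, -0.24 for Ddx58, -0.20 for Rsad2 and 0.23 for B2m. That of B2m came from library size alone, where the median of all genes was -0.59. The other 15 of the 22, among them each heavy chain, loading gene and immunoproteasome subunit tested, changed sign in at least 1 setting. With the level of acinar markers as a covariate, 8 of the 22 were lower and the median was 0.40, and Psmb8, Tap1, B2m, H2-K1 and Cd74 were higher at an unadjusted p under 0.05, which is 22.7% of the tested members against 9.8% of all genes in that fit. The part of acinar RNA in the differences was not tested otherwise. All 8 immediate-early genes, which cells can induce within minutes of handling, were lower in db/db islets and 7 of them passed the adjusted test, with summed levels of 57.1 to 110 CPM against 901 to 1447 CPM. The bearing of this on the members was not tested.

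**Figure D5:**
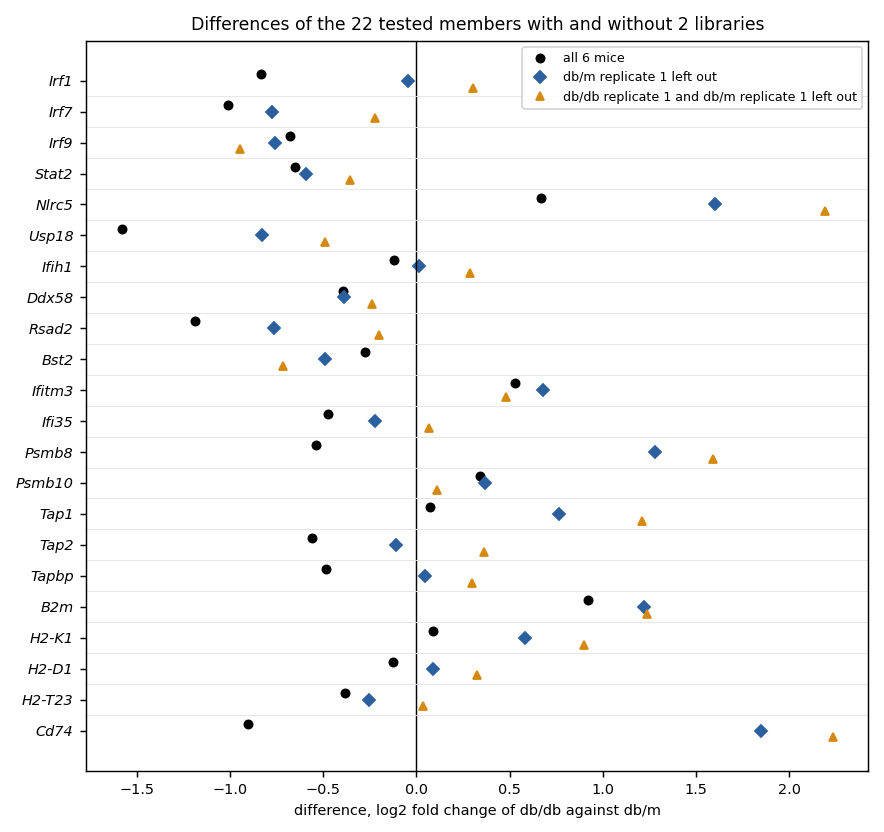
Log2 fold change of db/db against db/m (x axis) for the 22 tested members with all 6 mice (black circles), without db/m replicate 1 (blue diamonds), and without both libraries numbered 1 (orange triangles). Stat2, Irf9, Usp18, Ddx58, Rsad2 and Irf7 stay left of 0 in all 3 fits, while Cd74 goes from -0.91 to 1.85 and 2.23 and Psmb8 from -0.54 to 1.28 and 1.59.

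The genes around the members in the pathway were taken from lists of 141 further genes, of which 72 were tested. At an unadjusted p under 0.05, 3 had a higher and 4 a lower level in db/db islets (9.72%), below the share of all genes, and none passed the adjusted p in edgeR's quasi-likelihood test. This split moved with the setting. It was 14 higher and 0 lower without both libraries numbered 1 (12% of all genes in either direction) and 12 and 1 with the acinar covariate (9.8%). It was 9 and 2 without db/m replicate 1 (10.8%) and 0 and 11 with library size alone (19.1%). Of the 21 interferon ligands, 20 had 0 counts in each library, among them Ifnb1 and all listed Ifna genes, and Ifng had 2 counts, in db/db replicate 3. The limit of 3 counts applies to these zeros as well.

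Among receptors and signalling genes, Ifnar2, a chain of the type I interferon receptor, was higher in each db/db mouse, with 8.11, 6.52 and 5.85 CPM against 4.44, 3.61 and 4.44 CPM. Its log2 fold change was 0.71 (SE 0.27, adjusted p = 0.271 in edgeR's quasi-likelihood test). Ifnar1, the other chain, ran from 15.6 to 17.7 CPM in db/db and from 18.4 to 22.5 CPM in db/m mice. Irf3, which turns on interferon genes, had 25.1, 19.5 and 22.7 CPM in db/db mice against 14.6, 16.1 and 16.6 CPM, also without overlap (log2 fold change 0.51, SE 0.21, adjusted p = 0.308 in edgeR's quasi-likelihood test). Socs3, an inhibitor of cytokine and leptin receptor signalling, was lower, with 2.65, 5.68 and 4.10 CPM against 13.6, 11.2 and 5.85 CPM (log2 fold change -1.30, SE 0.39, adjusted p = 0.166 in edgeR's quasi-likelihood test).

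Among further interferon-stimulated and presentation genes, Adar, an RNA-editing enzyme, had 7.15, 11.1 and 13.99 CPM in db/db mice and 19.8, 19.3 and 14.1 CPM in db/m mice. Its groups did not overlap, with a log2 fold change of -0.72 (SE 0.29, adjusted p = 0.288 in edgeR's quasi-likelihood test). Tor3a, at 1.61, 4.43 and 3.16 CPM against 15.2, 7.40 and 4.93 CPM, did not overlap either, with a log2 fold change of -1.58 (SE 0.49, adjusted p = 0.180 in edgeR's quasi-likelihood test). Ifitm2, a close relative of Ifitm3, had 22, 10.4 and 8.41 CPM against 3.89, 5.18 and 9.21 CPM and a log2 fold change of 1.16 (SE 0.44, adjusted p = 0.264 in edgeR's quasi-likelihood test). The nonclassical class I gene H2-M3, which presents formylated peptides, had 2, 6 and 5 counts in db/db mice and 103, 24 and 15 in db/m mice, with a log2 fold change of -2.77 (SE 0.73, adjusted p = 0.121 in edgeR's quasi-likelihood test). Among the members and these genes it had the lowest adjusted p. Of the other 54 interferon-stimulated genes, 24 were tested, with 10 higher, 14 lower and a median log2 fold change of -0.23.

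Per kilobase of exon, the members spanned a wide range of levels, averaged over the 6 mice. H2-D1 stood first at 29.7 CPM per kb, followed by Psmb10 (19.2), Cd74 (13.0), B2m (12.05), Tapbp (9.80), Ifitm3 (9.67), H2-K1 (3.04) and H2-T23 (3.03). The ranges over mice of neighbours among these 8 overlapped, and Cd74 took its place from db/m replicate 1, at 45.7 CPM per kb, against 2.18 to 17.3 in the other mice. Among the transcription factors Stat2 was at 1.62, Irf1 at 1.33 and Irf9 at 1.13 CPM per kb. At the low end Oas1g was at 0.0477 and Ifit3 at 0.030 CPM per kb. The first 8 places were thus held by 7 genes of antigen presentation and by Ifitm3, and the last 7 by Isg15, Oasl2, Ifit1, Ifit2, Oas1a, Oas1g and Ifit3, all of them antiviral effectors. Between them the arms were mixed, with the effectors Ifi35 at place 9 and Bst2 at 12. The other presentation genes were Tap2 at place 10, Tap1 at 16, Psmb8 at 18 and Psmb9 at 20.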

How the data were processed

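RNA was sequenced from islets of 3 db/db and 3 db/m mice. The authors cleaned the reads, mapped them to mm10 and deposited raw counts per gene symbol, without normalization, in 1 column per mouse. Their methods name TopHat and the submitters' processing notes name HISAT2 2.0.4; which of them gave the counts, the counting program, the annotation and the strand setting are not given in the sources used here. Every column was matched to a mouse by its label.

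Groups were compared with edgeR 4.0.16 in R 4.3.3, with filterByExpr at its defaults, TMM factors, the quasi-likelihood F-test and Benjamini-Hochberg adjustment over 12760 genes at a threshold of 0.05. The SE is the size of the log2 fold change over the square root of F. The depth was 15641797 to 20614531 counts per library, and a limit of 3 counts, which covers counting error alone, stood for genes without reads. The common biological coefficient of variation was 0.355. Between replicates of a group the chi-square of the counts was 26.5 to 147 times its degrees of freedom, so none was a repeat of another. They are separate mice by the methods.

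The members and lists were chosen with earlier results of these data known, so lists are described by counts and medians beside all tested genes, with no test. Full values went to the 12 tested members with the smallest p and to the member with the highest mean CPM of each role, and among the related genes to those with an unadjusted p under 0.05. Other genes were named after their values were seen. As alternatives, the fit was repeated with DESeq2 1.42.0, with upper-quartile factors or library size alone, with other filters, without genes of 1% of a library, with a block for the replicate number, with an acinar covariate (mean log2(CPM + 1)), with each mouse left out in turn and, chosen after seeing the data, with both libraries numbered 1 left out. Gene positions, exon lengths and shared stretches of 50 bases came from GRCm38.p6 and promoter sequences from the RefSeq table of that build, where 27 of 32 members matched. These were read in Python 3.11.15, and matplotlib 3.10.9 drew the figures. The scripts were tested on simulated data. The circRNA data were not analysed here. The result of 1 gene of the related lists is not reported here.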

Additional observations from a re-analysis of the deposited data

How the results depend on the processing

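No member passed an adjusted p of 0.05 under any alternative. The number of genes called, 79, was 707 with DESeq2, 21 with library size alone, 52 with upper-quartile factors, 888 without a filter on low counts, 47 with the acinar covariate and 10 to 333 with a mouse left out. With the replicate block it was 16, and 1 member was higher and 0 lower at an unadjusted p under 0.05, but samples with the same number did not deviate together (correlations -0.527, -0.195 and -0.323) and share only a number. Members higher at an unadjusted p under 0.05, 1 with all mice, were 0 with library size alone, 5 with the acinar covariate, 0 to 2 with a mouse left out and 4 without both libraries numbered 1. Members lower, 2 with all mice, were 3 with library size alone and 3 without a filter on low counts. They were 1 with DESeq2, with upper-quartile factors and without the genes with 1% of a library. With the acinar covariate and without both libraries numbered 1 they were 0, and with a mouse left out 0 to 2. In either direction, the share of tested members, 21 to 32 in number, was 13.6% with library size alone against 19.1% of all genes. It was 9.09% against 15.4% with upper-quartile factors and 12.5% against 12.4% without a filter on low counts. With the replicate block it was 4.55% against 8.84%, and with the acinar covariate 22.7% against 9.8%. Without both libraries numbered 1 it was 17.4% against 12%. With a mouse left out it ran from 0 to 11.1%, against 10.8% to 19.8%. The median of -0.43 was -1.02 with library size alone, 0.40 with the acinar covariate and 0.29 without both libraries numbered 1, and lay between -0.64 and -0.043 with a mouse left out. With library size alone the median of all genes was -0.59. The median of the members minus that of all genes was -0.436 there and -0.433 in the main fit.

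Of 329 log2 fold changes of single members under the alternatives, 42 had the other sign, and the cause was not tested. With the acinar covariate they were Irf1 0.51, Ifih1 0.40, Ifi35 0.29, Psmb8 2.25, Psmb10 -0.074, Tap2 0.65, Tapbp 0.47, H2-D1 0.35, H2-T23 0.40 and Cd74 3.02. Without both libraries numbered 1 they were Irf1 0.30, Ifih1 0.29, Ifi35 0.065, Psmb8 1.59, Tap2 0.36, Tapbp 0.30, H2-D1 0.33, H2-T23 0.034 and Cd74 2.23. With library size alone they were Ifitm3 -0.13, Psmb10 -0.30, Tap1 -0.58 and H2-K1 -0.56, and with the replicate block Psmb8 0.21 and Cd74 0.43. With a mouse left out, the values ran from -0.14 to 1.60 for Nlrc5, -0.91 to 0.18 for Ifih1, -0.51 to 0.030 for Bst2, -0.99 to 1.28 for Psmb8, -0.032 to 0.93 for Psmb10, -0.33 to 0.76 for Tap1, -0.70 to 0.047 for Tapbp, -0.23 to 0.58 for H2-K1, -0.30 to 0.10 for H2-D1, -0.83 to 0.15 for H2-T23 and -1.76 to 1.85 for Cd74. The other 287 kept their sign. Depth limits the 10 members below the filter.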

Other observations

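Of the 16 sensors and adaptors listed that feed into interferon production, 11 were tested, with 6 higher, 5 lower and a median log2 fold change of 0.14. Mavs, the adaptor of RIG-I and MDA5, had 23.7, 16.3 and 19.2 CPM in db/db mice and 7.52, 16.0 and 16.9 CPM in db/m mice (log2 fold change 0.56, adjusted p = 0.466 in edgeR's quasi-likelihood test). Tmem173 (STING), the adaptor of DNA sensing, had 0.562, 1.38 and 2.09 CPM against 0.881, 0.175 and 0.217 CPM. Tlr9 had 17 counts in db/db replicate 3 and 42 in db/m replicate 1, the libraries with the highest Cd74, and 0 or 1 in the other mice. These genes were named after their values were seen.

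Genes of the wider class I pathway included the abundant chaperones Calr, Canx and Pdia3, which assist protein folding in general. Calr was at 301, 241 and 162 CPM in db/db mice and at 274, 232 and 511 CPM in db/m mice, so the highest library was here db/m replicate 3. Of the 12 tested genes of that list, 8 had a lower and 4 a higher level in db/db mice, and the median log2 fold change was -0.25.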
